A study of Mus musculus with 6 samples.

Results

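Vnn1, the nuclear receptor gene Ppara and 6 liver genes known as targets of that receptor (Cyp4a10, Cyp4a14, Cpt1a, Ehhadh, Pdk4 and Fgf21) were followed in mouse liver RNA sequencing. They were taken by symbol from a table of 19613 gene rows, and all 8 were found, each in 1 row. The set was chosen by its measured levels in knockout (KO) against wild-type (WT) liver after median-of-ratios scaling, so those values describe it. Livers came from KO and from WT mice, with 3 libraries per genotype. Mice of both genotypes had received lipopolysaccharide (LPS, bacterial endotoxin) at 15 mg/kg into the peritoneum 6 h before sampling. All groups therefore carry the endotoxin treatment, and with no untreated liver among the samples nothing is said here on the effect of LPS. Strain and age are not given in the labels used here, and the labels do not say whether the libraries of a genotype come from separate animals, so errors and p-values measure the spread between libraries.

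PPAR alpha, encoded by Ppara, is a receptor for fatty acids that pairs with retinoid X receptors and turns on genes of fatty acid use in the fasting liver. Its targets carry fatty acids into mitochondria, shorten them in peroxisomes, oxidise their far end in the endoplasmic reticulum, and slow the burning of sugar. Vnn1 codes for vanin 1, a membrane-anchored pantetheinase that splits pantetheine into pantothenate (vitamin B5) and cysteamine, and is a known target of PPAR alpha in mouse liver.

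The values are FPKM (fragments scaled to gene length and to a total for each library) divided by a median-of-ratios factor for each library, between 0.723 and 1.40, and are called scaled FPKM. As deposited, the median log2 difference of all tested genes was 0.45 (KO minus WT), and after scaling it was -0.00498; differences are given after scaling unless the deposited values are named. Values of single libraries are listed in the order of replicates 1, 2 and 3. Reads recovered in genes came to between 26303150 and 44682659 per library. Set against the library total that the deposited FPKM imply, they came to 98.3%, 122% and 130% in KO and 75.4%, 76.0% and 97.9% in WT. Those of KO replicates 2 and 3 exceeded that total, so it cannot be read as the mapped fragments of the library. Its part in the deposited difference was not tested. All libraries held RNA of the Y-linked genes Ddx3y (11.1 to 15.9 scaled FPKM) and Eif2s3y (17.1 to 22.6), with Xist between 0.0093 and 0.0379. The summed level of 8 hepatocyte markers was 19592 to 22831 scaled FPKM in KO and 21477 to 27911 in WT, and none of these markers was called, although 3 of the 8 were lower in every KO library than in every WT library, an order held by 9.88% of all tested genes.

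Among the 8 genes, Vnn1 stood higher in KO in every library, Ppara stood lower in KO in every library by a smaller margin, and the libraries of both genotypes overlapped for the other 6. Vnn1 measured 24.1, 10.4 and 19.6 scaled FPKM in the KO libraries and 4.74, 3.23 and 4.47 in the WT libraries. All KO libraries lay far above all WT libraries, an order that 10.3% of all tested genes share without regard to size, and the KO libraries differed more among themselves than the WT libraries did. The KO mean of 18.0 ± 6.97 was 4.34 times the WT mean of 4.15 ± 0.809 (SD, n = 3), a log2 difference of 1.82 with a standard error (SE) of 0.27. The values rested on 931 to 2270 reads per library in KO and on 256 to 336 in WT, so counting error is small beside the spread between libraries.

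The genes were chosen with this contrast between KO and WT known, so their differences are a description and carry no test of their own. Of the 7 that passed the filter on low values (FPKM of at least 1 in at least 3 libraries), 1 was called higher in KO, Vnn1, and none lower, at a limma adjusted p under 0.05 over all 9218 tested genes. Of all tested genes, 44 (0.477%) were called higher, 55 (0.597%) lower and 99 (1.07%) in either direction. Pdk4 did not pass the filter. With each library left out in turn the log2 difference of Vnn1 lay between 1.59 and 2.14, but the gene kept its call only without KO replicate 2 or WT replicate 1.

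Ppara itself was a gene of low level. It measured 1.87, 1.36 and 1.71 scaled FPKM in the KO libraries and 3.05, 2.03 and 2.12 in the WT libraries. Every KO library lay below every WT library, by a narrow gap between KO replicate 1 and WT replicate 2. The means were 1.65 ± 0.259 in KO and 2.40 ± 0.565 in WT (SD, n = 3), a log2 difference of -0.35 (SE 0.14). Without overlap between the genotypes stood 20.2% of all tested genes, 9.88% with KO below, so an order like that of Ppara is common in the table. As deposited, before scaling, the genotypes overlapped and the log2 difference was 0.02.

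**Figure D1:**
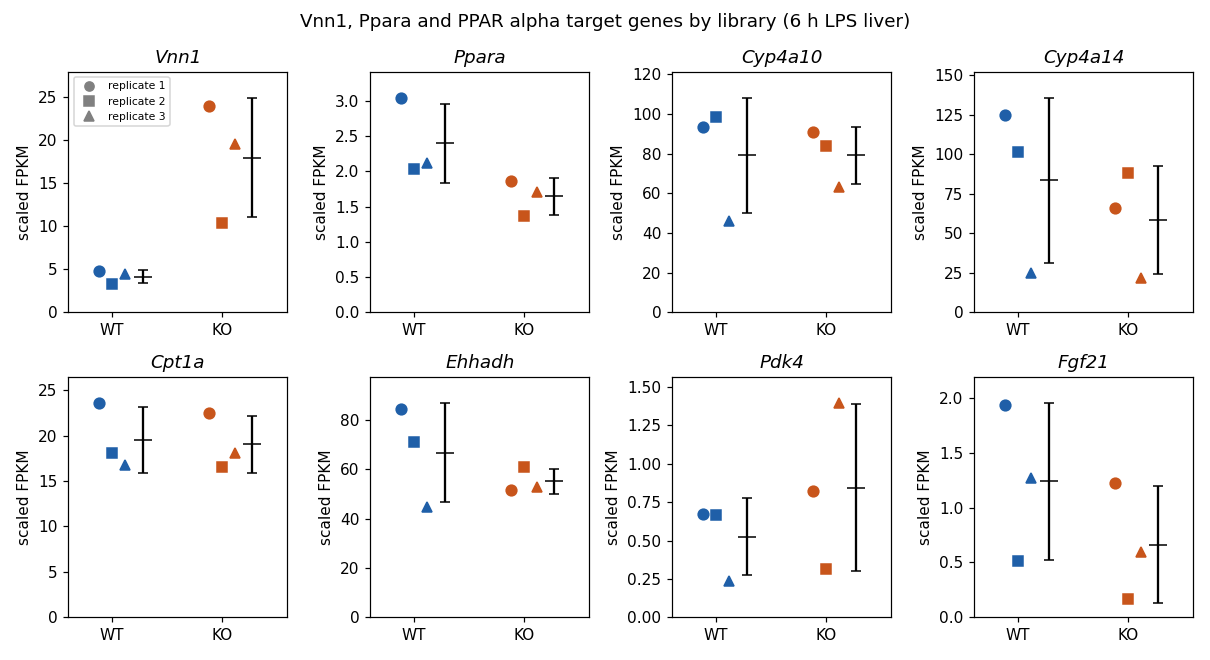
Scaled FPKM (vertical axes, linear, each from 0) of the 8 genes in the 3 WT (blue) and 3 KO (orange) libraries, with replicates 1, 2 and 3 as circle, square and triangle and black bars for mean ± SD. Vnn1 lies between 10.4 and 24.1 in KO and between 3.23 and 4.74 in WT, while the Cyp4a14 ranges of both genotypes are wide and overlap.

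The 2 cytochromes P450 of the Cyp4a family, which hydroxylate the far end of fatty acids and are classical markers of PPAR alpha activity in mouse liver, were the most abundant of the 8 genes by mean level over all libraries. Cyp4a14 measured 65.7, 88.1 and 21.4 scaled FPKM in the KO libraries and 125, 101 and 24.6 in the WT libraries. Replicate 3 of each genotype was by far the lowest, and the highest library held 5.83 times the level of the lowest. The means of 58.4 ± 34.0 in KO and 83.5 ± 52.3 in WT (SD, n = 3) differed by less than the spread between replicates (log2 difference -0.44, SE 0.66).

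Cyp4a10 followed a flatter course. It measured 90.8, 83.7 and 62.9 scaled FPKM in the KO libraries and 93.6, 98.2 and 45.8 in the WT libraries. The means were nearly equal, 79.1 ± 14.5 in KO and 79.2 ± 29.0 in WT (SD, n = 3; log2 difference 0.06, SE 0.29). Replicate 3 was again the lowest of each genotype. As deposited, the log2 difference of Cyp4a10 was 0.63, and it was called there together with Vnn1, beside 29.3% of all tested genes.

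Ehhadh codes for the peroxisomal bifunctional enzyme, which carries out the middle steps of peroxisomal beta oxidation. It measured 51.6, 61.0 and 52.9 scaled FPKM in the KO libraries and 84.4, 71.1 and 44.8 in the WT libraries. The KO libraries lay close together inside the wider WT range (log2 difference -0.23, SE 0.22). WT replicate 3 was the lowest WT library for Cyp4a10, Cyp4a14, Ehhadh, Cpt1a and Pdk4. Without it, the KO libraries of Cyp4a10, Cyp4a14 and Ehhadh all lay below the 2 other WT libraries. The log2 differences were then -0.29, -1.15 and -0.49. As the lowest WT library of these genes, its removal had to raise the WT mean. With another library left out instead, the differences reached 0.25 for Cyp4a10, 0.16 for Cyp4a14 and -0.04 for Ehhadh. Fewer libraries also separate more easily, and the share of all tested genes without overlap was not computed for this comparison. The order without WT replicate 3 is therefore only a description.

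Cpt1a codes for the liver carnitine palmitoyltransferase, the gate by which long-chain fatty acids enter mitochondria. It measured 22.5, 16.5 and 18.1 scaled FPKM in the KO libraries and 23.6, 18.1 and 16.7 in the WT libraries. The highest library exceeded the lowest by only 1.43 times, the narrowest range of the 8 genes, and the log2 difference was -0.03 (SE 0.17). The deposited values gave 0.52, close to the shift of the whole table.

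Pdk4, which codes for a kinase that shuts pyruvate dehydrogenase and so spares glucose, and Fgf21, which codes for a fasting hormone secreted by the liver, were both of low level. Pdk4 measured 0.823, 0.314 and 1.40 scaled FPKM in the KO libraries and 0.670, 0.668 and 0.237 in the WT libraries, from 22 to 235 reads per library. Fgf21 measured 1.23, 0.170 and 0.592 scaled FPKM in the KO libraries and 1.94, 0.512 and 1.27 in the WT libraries. Both genes overlapped between the genotypes, and replicate 2 was the lowest library of each genotype for Fgf21. The Fgf21 value of KO replicate 2 came from 6 reads, whose 95% exact Poisson interval, which covers counting error only, runs from 2.20 to 13.1 reads. The log2 difference of Fgf21 was -0.43 (SE 0.29), but -0.93 with a pseudocount of 0.1 in place of 1 and -1.03 from the recovered reads with limma-voom, so its size depends on the scale used.

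FPKM is corrected for gene length, so levels can be set side by side. In WT the order of mean scaled FPKM was Cyp4a14 (83.5), Cyp4a10 (79.2), Ehhadh (66.8), Cpt1a (19.5), Vnn1 (4.15), Ppara (2.40), Fgf21 (1.24) and Pdk4 (0.525). The ranges of the first 3 overlapped, as did those of Fgf21 and Pdk4, while Cpt1a, Vnn1 and Ppara each had a range of their own. In KO, Cpt1a (19.0) and Vnn1 (18.0) had overlapping ranges.

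The spread between libraries of a genotype was wide for most of these genes. The pooled within-genotype SD of Cyp4a14 was 1.15 on the log2 scale, larger than in 99.9% of the tested genes and than in each of the 200 tested genes of most similar level. Fgf21 (0.47), Cyp4a10 (0.47), Vnn1 (0.45) and Ehhadh (0.34) lay above 96.9%, 96.8%, 96.3% and 91.3% of tested genes. Cpt1a (0.23) and Ppara (0.19) lay nearer the middle, above 75.1% and 61.6%. This measure does not use the difference between genotypes.

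**Figure D2:**
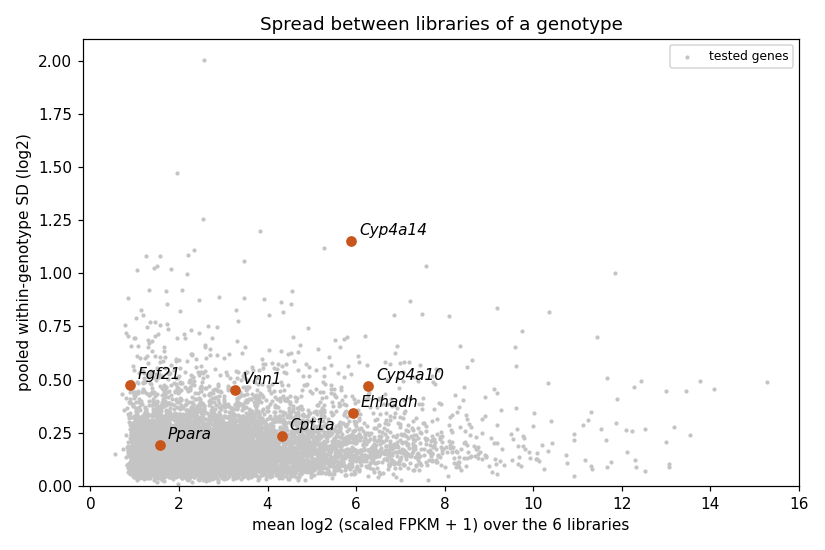
Pooled within-genotype SD (log2, vertical axis) against mean log2(scaled FPKM + 1) over the 6 libraries (horizontal axis) for the 9218 tested genes (grey), with the 7 tested genes of the set in orange. Cyp4a14, at 1.15, stands far above most genes of its level, and Ppara and Cpt1a lie within the bulk.

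Neither of the tested genes beside Vnn1 on its chromosome was called. Vnn3, another vanin gene and the protein-coding neighbour of Vnn1 in the RefSeq annotation of GRCm38.p6, measured 57.4, 48.4 and 50.6 scaled FPKM in the KO libraries and 67.4, 52.8 and 56.2 in the WT libraries. Vnn3 was more abundant than Vnn1 in all libraries, its genotypes overlapped, and its log2 difference was -0.17 (SE 0.14, limma adjusted p = 0.657). No stretch of 50 bases was common to the protein-coding transcripts of Vnn1 and Vnn3 in GENCODE M21. Rps12, a ribosomal protein gene and the other tested gene within 4 protein-coding places of Vnn1, had a log2 difference of -0.09 (adjusted p = 0.825), while Slc18b1 (0.0683 to 0.265 scaled FPKM), Eya4 (up to 0.0944) and, on the far side, Taar1 (up to 0.0249) were barely read. Among the Cyp4a genes, Cyp4a14 shared no stretch of 50 bases with the other 5, whereas 29.8% of those of Cyp4a10 occurred in a paralog, mostly Cyp4a32. The treatment of reads with several matches was not given in the sources used here. Cyp4a10 is thus less certain than Cyp4a14.

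Over 6 libraries, among 8859 tested genes (predicted genes, Rik clones and pseudogenes left out by symbol), those whose mean-centred log2 profile was closest to that of Vnn1 were Mup14 (a root mean square difference of 0.27), Hsph1 (0.38), Slc10a2 (0.39), Sdf2l1 (0.39) and Hspa8 (0.41), where the median over all 9218 tested genes was 1.00. Mup14 codes for a urinary lipocalin, Hsph1 and Hspa8 for cytosolic chaperones, Slc10a2 for a bile acid transporter and Sdf2l1 for a chaperone partner in the endoplasmic reticulum. None belongs to the PPAR alpha lists. Mup14 shared with Vnn1 the low value of KO replicate 2, at 723 scaled FPKM against 1938 and 2072 in KO replicates 1 and 3. The likeness includes the difference between genotypes by which Vnn1 was chosen and is a description.

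The wider PPAR alpha programme was read from 9 lists of receptor partners, enzymes, transporters and secreted factors, 139 genes besides the 8. Of these, 119 were tested, 19 lay below the filter and 1 was not among the rows used. After scaling 2 of the 119 (1.68%) were called, both lower in KO, against 1.07% of all tested genes. The lists were drawn up with earlier results of these data known, so this share is a description. The median log2 difference was -0.03, with 53 positive and 66 negative values, against -0.00498 over all tested genes. Genotypes without overlap made up 17.6% of the 119 and 20.2% of all tested genes. As deposited, 40 of the 119 were called, 39 of them higher, beside 28.7% of all tested genes called higher in those values.

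The 2 called genes were Txnip and Slc25a47. Txnip codes for thioredoxin-interacting protein, a glucose-induced brake on glucose uptake, and stood in the list of fasting signals. It measured 8.39, 12.8 and 8.93 scaled FPKM in the KO libraries and 23.3, 47.4 and 33.9 in the WT libraries. Every KO library lay below every WT library, and Txnip fell by 1.67 on the log2 scale (SE 0.25, limma adjusted p = 0.0235), from 34.9 ± 12.1 to 10.0 ± 2.41 scaled FPKM (SD, n = 3). Without KO replicate 1, KO replicate 3 or WT replicate 3 its adjusted p was 0.131, 0.0868 and 0.0845; as deposited it was lower too, with a log2 difference of -1.12.

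Slc25a47, which codes for a mitochondrial carrier of hepatocytes, measured 93.1, 77.6 and 90.1 scaled FPKM in the KO libraries and 160, 148 and 146 in the WT libraries. Both genotypes were tight and well apart, and Slc25a47 fell by 0.80 on the log2 scale (SE 0.13, limma adjusted p = 0.0289). The call was lost with any 1 library left out (adjusted p from 0.0581 to 0.125), while the log2 difference stayed between -0.84 and -0.72, and as deposited it was -0.23 (adjusted p = 0.387). Tsku, which codes for the secreted protein tsukushi, had a log2 difference of similar size, -0.86, and did not pass (adjusted p = 0.0701), except without WT replicate 1 (0.0265), with the recovered reads in limma-voom (0.0476) and with the replicate block (0.0360).

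Promoter sequence was available from RefSeq (GRCm38.p6; 250 bases before and 50 after the start of each gene) for 5 of the 8 genes, Ppara, Cpt1a, Ehhadh, Pdk4 and Fgf21, and for 114 of the 147 genes with the lists. Neither Vnn1, Cyp4a10 nor Cyp4a14 has an entry. PPAR alpha and its partner bind direct repeats of the hexamer AGGTCA spaced by a single base. The exact repeat AGGTCANAGGTCA (reverse TGACCTNTGACCT), searched on both strands, occurred in none of the 114 genes and in 0.0481% of all 27025 genes with an entry (0.0396% of the 32851 promoters, since a gene can have several). With a free base in each hexamer (AGGNCANAGGNCA, which also covers the exact repeat), it occurred in Fabp1 and Gdf15, 1.75% of the 114 genes, and in 0.451% of all genes with an entry (0.381% of promoters). The hexamer alone (reverse TGACCT), which overlaps the exact repeat, occurred in 20.2% of the 114 genes and in 18.1% of all genes with an entry (16.3% of promoters), and of the 5 with an entry only Cpt1a held it. Fabp1 is shown for its repeat, Cpt1a for its hexamer and Slc25a47, one of the 2 called genes, for its hexamer. Capitals mark the repeat in Fabp1 and the hexamer in the others. These coordinates belong to GRCm38.p6, not to a build the submitters name.
Cpt1a, chr19:3323051-3323350, plus strand: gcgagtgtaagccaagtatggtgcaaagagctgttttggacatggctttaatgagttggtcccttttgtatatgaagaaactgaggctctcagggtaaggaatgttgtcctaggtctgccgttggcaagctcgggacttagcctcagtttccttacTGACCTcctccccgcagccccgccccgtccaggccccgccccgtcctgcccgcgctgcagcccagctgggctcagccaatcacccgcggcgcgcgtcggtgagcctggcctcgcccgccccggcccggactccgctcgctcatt
Fabp1, chr6:71199629-71199928, plus strand: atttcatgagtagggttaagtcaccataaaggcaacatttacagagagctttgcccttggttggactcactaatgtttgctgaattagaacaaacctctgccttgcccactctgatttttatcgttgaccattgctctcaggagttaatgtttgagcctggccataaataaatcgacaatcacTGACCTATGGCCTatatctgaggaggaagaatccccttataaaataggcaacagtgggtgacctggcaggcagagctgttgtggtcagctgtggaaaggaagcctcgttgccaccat
Slc25a47, chr12:108850879-108851178, plus strand: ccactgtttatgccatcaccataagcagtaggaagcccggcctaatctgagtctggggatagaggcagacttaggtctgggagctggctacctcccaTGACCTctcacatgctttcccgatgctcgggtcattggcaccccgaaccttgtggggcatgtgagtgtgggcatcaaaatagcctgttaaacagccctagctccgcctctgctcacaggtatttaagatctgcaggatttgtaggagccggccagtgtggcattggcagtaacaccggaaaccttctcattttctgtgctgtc
The hexamer begins 94 bases before the annotated start in Cpt1a and 153 before it in Slc25a47, and the repeat 67 bases before it in Fabp1. Cpt1a and Fabp1 had log2 differences of -0.03 and -0.12 and Slc25a47 fell by 0.80. A match describes letters in the window and not a bound site.

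No other list held a called gene; the counts below leave out the 8 genes, and at an unadjusted p under 0.05 stood 17 of the 119 list genes, the 2 called ones included, beside 1300 (14.1%) of all 9218 tested genes, so their share was close to that of the table. Among 15 tested receptors and coregulators the log2 differences ran from -0.40 (Lpin1, a phosphatase that also acts as coactivator) to 0.18 (Creb3l3, a liver transcription factor). Ppard, the delta receptor, had -0.36 (adjusted p = 0.287), and Hnf4a, a master regulator of hepatocytes, -0.02. The coactivator genes Ppargc1a and Ppargc1b lay below the filter. Among 10 tested genes of the vanin and coenzyme A list, Pank3, a kinase that starts coenzyme A synthesis from pantothenate, had 0.50 (adjusted p = 0.101) and Ppcs, which takes the next step, 0.38 (0.172). Nudt7, a peroxisomal hydrolase of coenzyme A, had -0.12. As deposited, Pank3 and Ppcs were called, with 0.97 and 0.88, the only 2 of the 10. In those values 28.7% of all tested genes were called higher.

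In the list of omega oxidation, 10 genes were tested and none passed. The male-typical paralogs Cyp4a12a and Cyp4a12b had log2 differences of 0.56 and 0.58 (limma adjusted p = 0.102 and 0.228). Every KO library lay above every WT library for both, an order held by 10.3% of all tested genes. For Cyp4a12b the gap was narrow, with 38.7 scaled FPKM in KO replicate 2 against 38.2 in WT replicate 3. Cyp4a12a measured 164, 133 and 156 scaled FPKM in the KO libraries and 98.3, 101 and 107 in the WT libraries. The pair shares nearly 49% of its 50-base stretches (48.9% of those of Cyp4a12a), so their values are not independent. Cyp4a12a passed with quantile normalization (adjusted p = 0.0383). Cyp4f14, an omega hydroxylase of another family, had -0.61 (0.285), and Ephx2, the soluble epoxide hydrolase, 0.14.

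Of 16 tested genes of peroxisomal beta oxidation, 9 had a positive and 7 a negative log2 difference, with a median of 0.005. Decr2, a reductase for unsaturated fatty acids, had 0.47 (limma adjusted p = 0.212) and Acaa1b, a thiolase, 0.42 (0.426), and Scp2, the sterol carrier and thiolase gene, -0.20. In the list of mitochondrial beta oxidation and the carnitine shuttle, 10 of 20 tested genes were positive and 10 negative. The extremes were Slc22a5, the carnitine importer, at 0.57 (adjusted p = 0.128) and Ucp2, an uncoupling protein, at -0.63 (0.107); the abundant Acaa2 and Etfa had -0.12 and -0.11.

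None of the 6 tested genes of ketone body synthesis was called. Bdh1, which codes for the dehydrogenase that interconverts the main ketone bodies, had a log2 difference of -0.21 (limma adjusted p = 0.626), and Acat1, a mitochondrial thiolase gene, had -0.03 (0.965). Among 17 tested genes of fatty acid uptake and lipid droplets, Fabp1, the abundant fatty acid binding protein of liver, had -0.12, the importer Slc27a2 0.38, and the droplet genes Fitm1 and Plin5 0.44 and -0.44. Of the secreted fasting signals, Angptl4, an inhibitor of lipoprotein lipase and a PPAR target, had 0.37 (adjusted p = 0.466) and Igfbp1 -0.44 (0.461). The apolipoprotein genes Apoa1 and Apoa2 had -0.12 and -0.21.

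**Figure D3:**
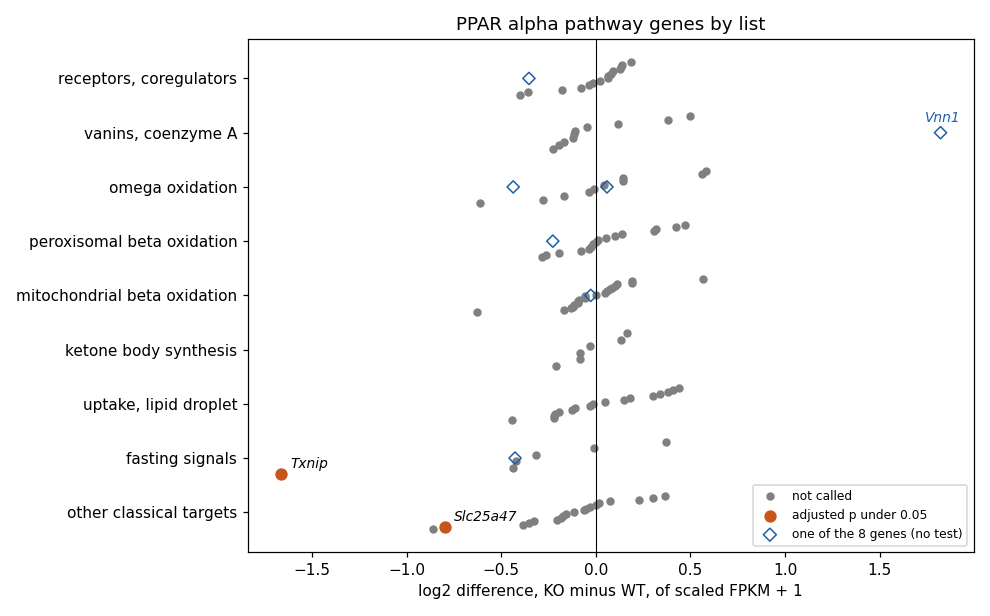
Log2 difference (KO minus WT, of scaled FPKM + 1, horizontal axis) of each tested gene in the 9 PPAR alpha lists (rows), with called genes in orange, the others in grey and the 7 tested genes of the chosen 8, which carry no test, as open blue diamonds. Vnn1 stands alone at 1.82, and of the list genes beside the chosen ones Txnip (-1.67) and Slc25a47 (-0.80) were called.

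The mitochondrial and peroxisomal lists varied between libraries of the same genotype. The median deviation of the 20 mitochondrial genes from their own means was 0.31 in WT replicate 1 and 0.17 in KO replicate 1, and -0.20 in WT replicate 3 and -0.18 in KO replicate 2. Peroxisomal genes ran the same way, from 0.21 in WT replicate 1 to -0.19 in WT replicate 3. Both ends of the range were thus WT libraries. Leaving out WT replicate 1 or WT replicate 3 moved the median log2 difference of the 119 genes to 0.08 or -0.12.

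Markers of other cells were also measured. Summed levels of 8 Kupffer cell markers were 28.4 to 45.2 scaled FPKM in KO and 30.5 to 46.4 in WT, of 8 neutrophil markers 113 to 119 and 109 to 165, and of 8 sinusoidal endothelial markers 19.7 to 25.001 and 20.5 to 30.4. Stellate (32.5 to 33.7 and 31.6 to 41.8), cholangiocyte (39.8 to 75.0 and 41.6 to 62.4) and erythroid markers (207 to 322 and 134 to 321) overlapped as well, and so did the lymphocyte markers, all 8 of which stayed below 1. Of the adipocyte list, 3 of 5 markers were read, 2 of them below 1 throughout, and their sum, 0.638 to 1.85 in KO and 0.188 to 0.296 in WT, did not overlap. No tested marker was called, but no lymphocyte or adipocyte marker passed the filter, so none of those was tested. Of the tested markers, 2 of 6 for Kupffer cells and 1 of 6 for sinusoidal endothelium were lower in every KO library than in every WT library, and 1 of 3 for cholangiocytes was higher (9.88% and 10.3% of all tested genes). Their part in the levels of Vnn1, Txnip and Slc25a47 was not tested, and in bulk tissue fewer cells of a type and less RNA per cell cannot be told apart.

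**Figure D4:**
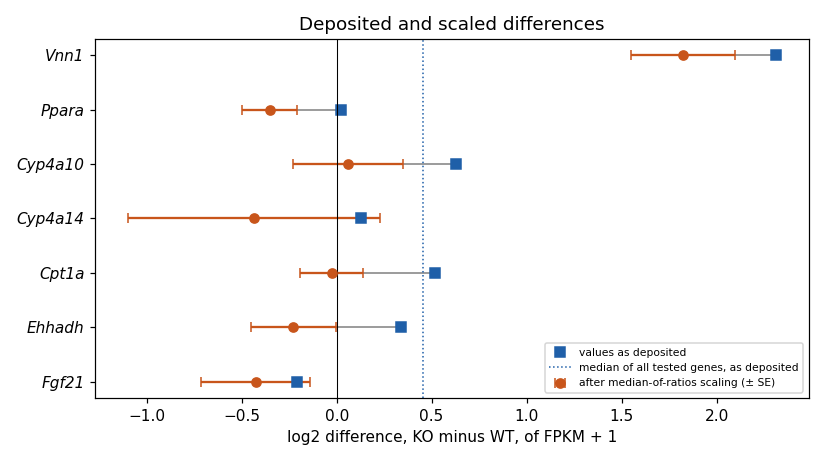
Log2 difference (KO minus WT, of FPKM + 1, horizontal axis) of the 7 tested genes of the set in the values as deposited (blue squares) and after median-of-ratios scaling (orange circles, bars ± SE), with the dotted line at the deposited median of all tested genes, 0.45. Vnn1 lies right of that line in both, and Ppara, Cyp4a14, Cpt1a and Ehhadh change sign between them.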

How the data were processed

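Liver RNA libraries from mice given LPS were used, 3 labelled KO and 3 labelled WT. The authors deposited FPKM values in a single table, matched to samples by library name; all value columns were used. Reads were aligned with HISAT2 2.0.5, per the submitters' processing notes, which name mm39 and hg38 without a role; the counting tool, strand setting and annotation were not given in the sources used here. Values of the targeted gene and of some list genes that the naming rule covers are not reported here. FPKM steps gave whole reads (within 0.0001 reads) for all 19613 rows, and 93.4% of the 18231 genes with a single GENCODE M21 exonic length came within 0.5 bp of it.

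Genes with FPKM of at least 1 in at least 3 libraries (9218) were divided by median-of-ratios factors computed over them and tested with limma 3.58.1 in R 4.3.3 (eBayes with trend, two-sided, genotype as the only term) on log2(scaled FPKM + 1), which understates differences of low genes; p-values were Benjamini-Hochberg adjusted over all tested genes. The 8 genes and the lists were chosen with earlier results of these data known. Beside the 8, the text names called list genes, in each list the 2 largest differences and the 2 most abundant genes, and the 5 profiles closest to Vnn1; Rps12, Slc18b1, Eya4, Taar1, the sex-linked genes, Ppargc1a, Ppargc1b and Gdf15 were named after their values were seen. Samples sharing a replicate number deviated together in numbers 1 and 2 (correlations 0.328 and 0.473) but not in number 3 (0.0183), so the numbers were not taken as pairs.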

Additional observations from a re-analysis of the deposited data

How the results depend on the processing

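Over 16 other settings, neither Vnn1 nor the 2 called list genes changed direction, and 103 of 110 values of the 7 tested genes of the set (Pdk4 was not among them) moved by less than the spread between replicates. That spread is wide for several of them. With each library left out, the log2 difference changed sign for Cyp4a14 (-1.15 to 0.16), Cyp4a10 (-0.29 to 0.25) and Cpt1a (-0.15 to 0.11). Vnn1, Ppara, Ehhadh and Fgf21 kept their sign there. The count of 99 called genes became 33 without a filter (more genes tested), 61 with a mean FPKM of at least 5 (fewer genes tested), 2703 in the values as deposited (98.0% higher, against 44.4%) and 298 with the replicate block, and 20 to 97 with each library left out: 20 without KO replicate 1, 45 without KO replicate 3, 48 without WT replicate 2 and 54 without WT replicate 3. The 2 called genes of the 119 became 0 without a filter, 40 as deposited and 5 with the replicate block (Pank3, Slc25a47, Tsku, Txnip and Ucp2), and 0 to 2 with each library left out. Without a filter the limma adjusted p of Txnip and Slc25a47 was 0.123 and 0.0682, and Vnn1 lost its call too. The median log2 difference of the 119 was 0.48 as deposited, where all tested genes stood at 0.45, 0.01 with quantile normalization and -0.12 to 0.08 with each library left out. With a library left out, the share of all tested genes without overlap was not computed, so no count of the 8 genes without overlap is given. Not every library correlated best with its own replicate number: KO replicate 3 correlated most with WT replicate 1 (0.362). The causes of these shifts beyond the number of genes or libraries tested were not tested. Fgf21 rested on 6 to 54 reads per library and Pdk4 on 22 to 235, and the part of depth in their spread was not tested.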
